A study of Mus musculus with 19 samples.

Results

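Endothelial genes were followed in every library of the mRNA-seq series as markers of the blood vessels of the vomeronasal organ (VNO): Cdh5, Pecam1, Cldn5, Emcn, Vwf, Kdr, Flt1, Tek, Acvrl1 and Eng. These 10 genes, of 35596 genes in all, were chosen by name as endothelial genes, with the endothelial BMP receptors Acvrl1 and Eng among them, and the rule for membership used no measured value, although earlier results of these data were known. The study asked how loss of Smad4, the mediator shared by TGFβ and BMP signaling, in vomeronasal sensory neurons (VSNs) changed transcription in the whole organ, and the comparisons below ask whether the vessel genes of that organ differed too.

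RNA came from whole VNOs of female mice at postnatal day 21. The AP-2εCre line (AP2e in the labels) carried Cre in the Tfap2e gene, which is active in immature basal VSNs, and the OMPCre line carried Cre under the control of Omp, which is active in mature apical and basal VSNs. Each line gave 3 libraries of conditional knockouts (cKO), labelled Cre +/- with floxed Smad4 and given as Smad4 flox/flox in the study's methods, 3 from heterozygous Cre +/- controls (Het), and 3 from controls labelled Wild Type (WT), which the study's own description gives as Smad4 flox/flox without Cre. Cre was therefore directed to neurons and not to endothelial cells in both lines, and the Het and cKO animals shared 1 Cre allele that the WT animals lacked. The labels also gave each library a VSN class as its cell type although the whole organ was used. The 8 VSN marker genes summed to 999 to 1672 CPM in the AP-2εCre libraries compared, and the vessel genes were present in the same RNA. Each library was labelled a biological replicate. One further AP-2εCre library carried labels of both a Het and a cKO and entered no comparison.

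Endothelial cells line all blood vessels and are held together by adherens and tight junctions. Their growth and survival are steered by VEGF and angiopoietin receptors, and their quiescence by the BMP9 and BMP10 ligands, which reach them in the blood and signal through ALK1, the product of Acvrl1, with endoglin, the product of Eng, as co-receptor and Smad4 as the shared mediator. In the VNO a large vessel with cavernous tissue runs along the organ and works as a pump that draws in stimuli, and capillaries enter the basal part of the sensory epithelium.

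All 10 genes were detected in all 19 libraries. Library totals ranged from 43385516 to 134042284 estimated counts, with a median of 63096714 over the 18 libraries compared, and the vessel genes had at least 416 counts in any library. Levels are given as CPM, that is counts relative to the TMM-scaled library total, where libraries are compared for 1 gene, and as TPM, which is also divided by transcript length, where genes are compared with each other. Smad4 itself, measured over the whole organ and all its transcripts, was 33.8 to 66.6 CPM in the 3 AP-2εCre cKO libraries and 39.6 to 81.0 CPM in their 6 controls. It was 54.5 to 62.5 CPM in the 3 OMPCre cKO libraries and 64.9 to 83.9 CPM in their 6 controls, which did not overlap (log2 fold change -0.35, adjusted p = 0.909 in edgeR).

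Pecam1, the adhesion molecule CD31 (chr11:106654217-106750628, minus strand, GRCm38), stood apart from the other vessel genes in its spread. Its summed level ran from 77.3 to 1368 CPM over the 18 libraries, a 17.7-fold range, whereas the range of the other 9 genes was 1.39-fold for Flt1 to 1.76-fold for Emcn. In the AP-2εCre line it was 381, 269 and 107 CPM in WT, 607, 183 and 96.2 CPM in Het and 77.3, 591 and 1368 CPM in cKO. In the OMPCre line it was 828, 236 and 92.9 CPM in WT, 374, 237 and 85.9 CPM in Het and 281, 323 and 144 CPM in cKO. High and low libraries occurred in every group, and the groups overlapped.

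The spread came from 1 transcript. This transcript, annotated as a retained intron of Pecam1, is a single exon of 2142 bases at chr11:106661185-106663326, of which 1914 bases lie in introns of the 6 coding Pecam1 transcripts of the annotation. It held 45.8% to 96.8% of the gene's estimated counts, with a median of 83.9%. It is the only one of the transcripts of the 10 genes with a long run of 1 base. The run is 43 adenines, at bases 357 to 399 of the transcript, none of which lies in an exon of a coding transcript, and the longest run of A in the 55 other transcripts of the 10 genes is 18. The stretch around the run is shown because the summed level of Pecam1 depends on the transcript that holds it. It covers chr11:106662908-106663010 of GRCm38 on the minus strand, with the run in capitals.
Pecam1 retained intron: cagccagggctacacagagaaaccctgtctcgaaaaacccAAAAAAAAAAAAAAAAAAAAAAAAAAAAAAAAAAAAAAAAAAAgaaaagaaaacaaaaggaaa

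Across the 18 libraries, the transcripts whose log2(CPM + 1) followed that of the retained intron most closely, of 36597 compared, included 1 transcript each of Slx1b (r = 0.99), Stag2 (r = 0.97) and Olfr57 (r = 0.94). The longest runs of A in these were 45, 29 and 33 bases. Runs of at least 25 A occurred in 0.506% of the transcripts. The 185 transcripts with such a run had a median r of -0.20 with the retained intron, and the 36395 without one had a median r of -0.15. The transcripts at ranks 5 to 10 in likeness to the retained intron had longest runs of 3 to 9 A. These correlations describe libraries that also share depth and preparation. Reads were not examined here, and whether those assigned to the retained intron came from Pecam1 was not tested.

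Without the retained intron, the level of Pecam1 ran from 34.4 to 49.1 CPM, a 1.43-fold range like that of the other vessel genes. It was 43.6, 44.1 and 35.1 CPM in WT, 49.1, 39.1 and 43.7 CPM in Het and 38.2, 42.1 and 43.4 CPM in cKO of the AP-2εCre line. In the OMPCre line it was 38.6, 39.1 and 42.7 CPM in WT, 44.4, 37.6 and 46.5 CPM in Het and 39.5, 42.9 and 34.4 CPM in cKO. The groups overlapped in both lines. The AP-2εCre cKO had a log2 fold change against its controls of 1.31 ± 0.74 (SE) with the retained intron and -0.04 ± 0.10 without it, and the OMPCre cKO had one of -0.31 ± 0.67 with it and -0.09 ± 0.10 without it. With the retained intron, the AP-2εCre value rested largely on 1 library: it was 0.29 without AP2e cKO replicate 3 and 1.84 without AP2e cKO replicate 1. Leaving the transcript out was chosen after its values had been seen.

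**Figure D1:**
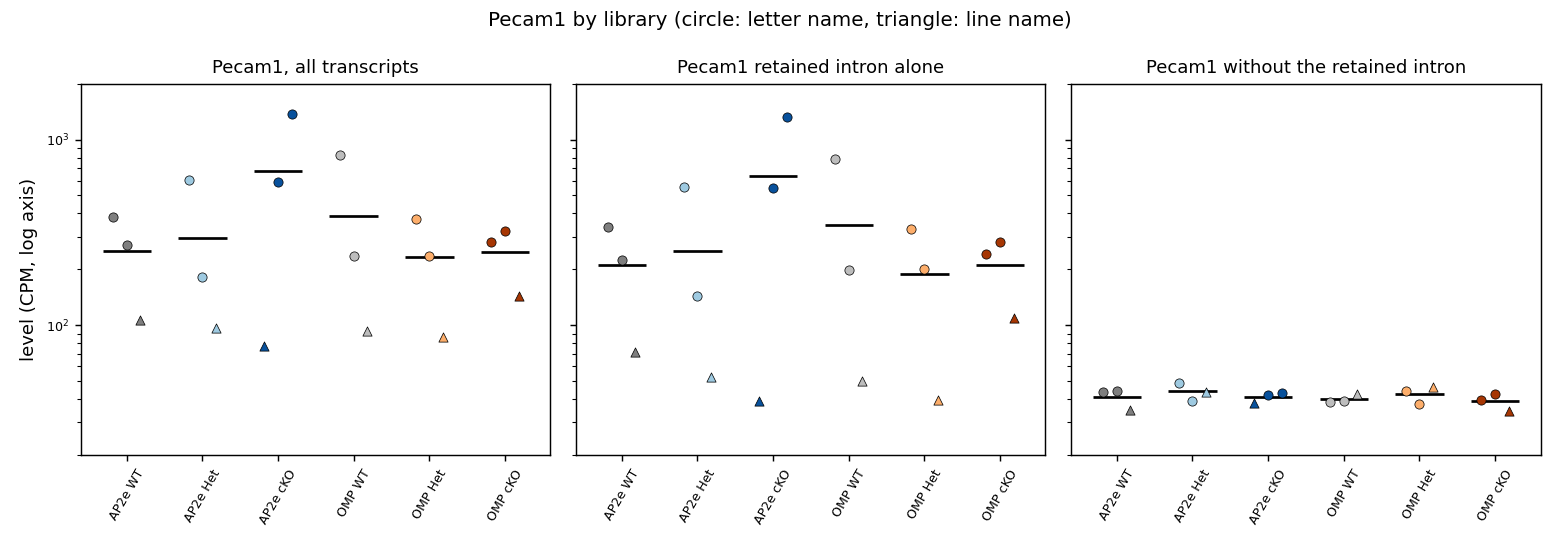
Level of Pecam1 in each of the 18 libraries on a log axis (CPM), for all transcripts, for the retained intron alone and for the other transcripts. Each point is 1 library and each bar the mean of 3; circles are libraries whose animal is named by a letter and a number in the deposited data (letter name), and triangles those named by the mouse line (line name). The sum runs from 77.3 to 1368 CPM and the sum without the retained intron from 34.4 to 49.1 CPM.

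Per length, the order of the vessel genes depended on which transcripts were counted. Over all transcripts the mean TPM of the 12 controls was highest for Pecam1 (109 ± 73.8, SD), followed by Eng (31.0 ± 9.48), and lowest for Tek (3.60 ± 1.21). Short and non-coding transcripts made up much of several of these sums, so the order was also computed from coding transcripts with at least 50% of the codons of the gene's longest one, a choice made after the values had been seen. On that measure Eng was highest (16.9 ± 4.23 TPM), followed by Emcn (14.0 ± 2.06 TPM) and Pecam1 (11.1 ± 2.05 TPM). Such transcripts held 15.8% of the TPM of Pecam1, 42.7% of that of Vwf, 49.3% of that of Acvrl1 and 55.5% of that of Eng, but at least 95.2% of that of each of the other 6 genes.

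The middle and lower ranks lay close together. Cldn5 (8.97 ± 3.12 TPM) and Cdh5 (8.26 ± 1.63 TPM) did not differ beyond their spread, Cldn5 being the higher in 6 of 12 controls. Flt1 (5.29 ± 1.20 TPM) was below Cdh5 in 12 of 12 controls and above Vwf in 12 of 12. Vwf (4.39 ± 0.98 TPM), Acvrl1 (4.22 ± 0.90 TPM) and Kdr (3.91 ± 0.70 TPM) overlapped, with Vwf above Acvrl1 in 5 of 12 and Acvrl1 above Kdr in 8 of 12, and Kdr was above Tek (3.35 ± 0.93 TPM) in 10 of 12. The 2 receptors of the BMP9 complex therefore differed in level per length, all Eng values of the controls lying above the highest Acvrl1 value of 6.15 TPM.

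**Figure D2:**
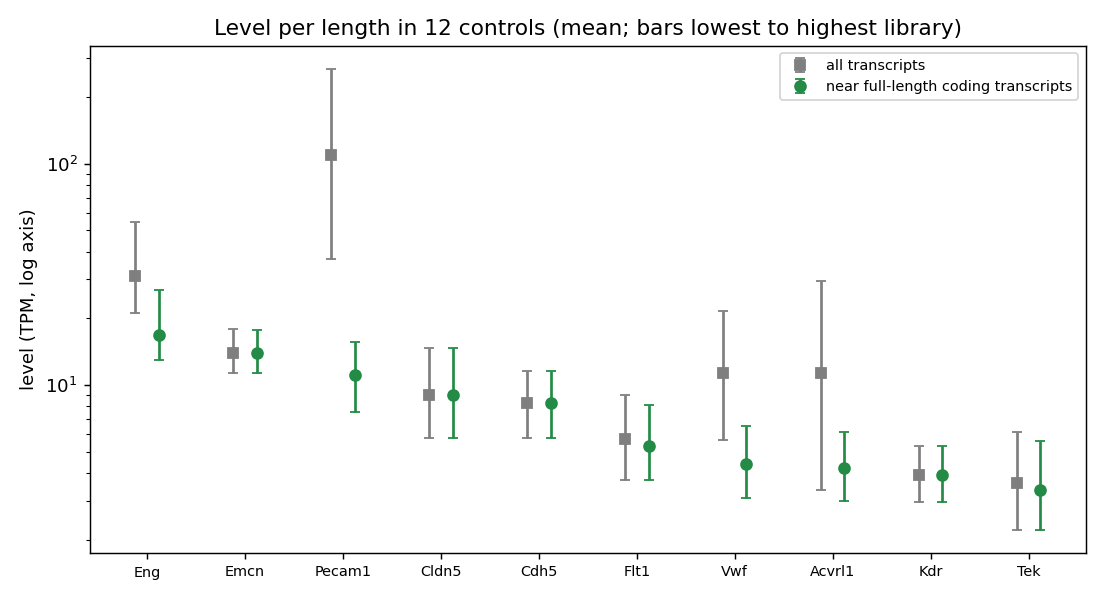
Mean TPM of each vessel gene in the 12 control libraries on a log axis, over all transcripts (squares) and over coding transcripts near full length (circles); bars run from the lowest to the highest library. Pecam1, Vwf, Acvrl1 and Eng are higher over all transcripts, and Eng is the highest of the circles at 16.9 TPM.

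Of the 10 vessel genes, 0 passed the test across all genes in either cKO comparison (edgeR quasi-likelihood test, adjusted p under 0.05 after Benjamini-Hochberg adjustment). In the AP-2εCre cKO, 0.0378% of the 18495 genes tested were called, and in the OMPCre cKO 0% of 18623, so few genes of any kind reached the threshold. At an unadjusted p under 0.05 there were 2 of 10 vessel genes in the AP-2εCre comparison, Vwf and Eng, against 10.2% of all genes tested, and 0 of 10 in the OMPCre comparison, against 3.95% of all genes. By DESeq2, 1 of the 10, Vwf, was called in the AP-2εCre cKO, where 1.25% of all genes were. In the OMPCre cKO 0 of the 10 were called by DESeq2, where 46 of 25204 genes, or 0.18%, were. The median log2 fold change of the 10 genes was 0.01 in the AP-2εCre cKO, beside 0.0030 over all genes, and -0.04 in the OMPCre cKO, beside -0.0046 over all genes.

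**Figure D3:**
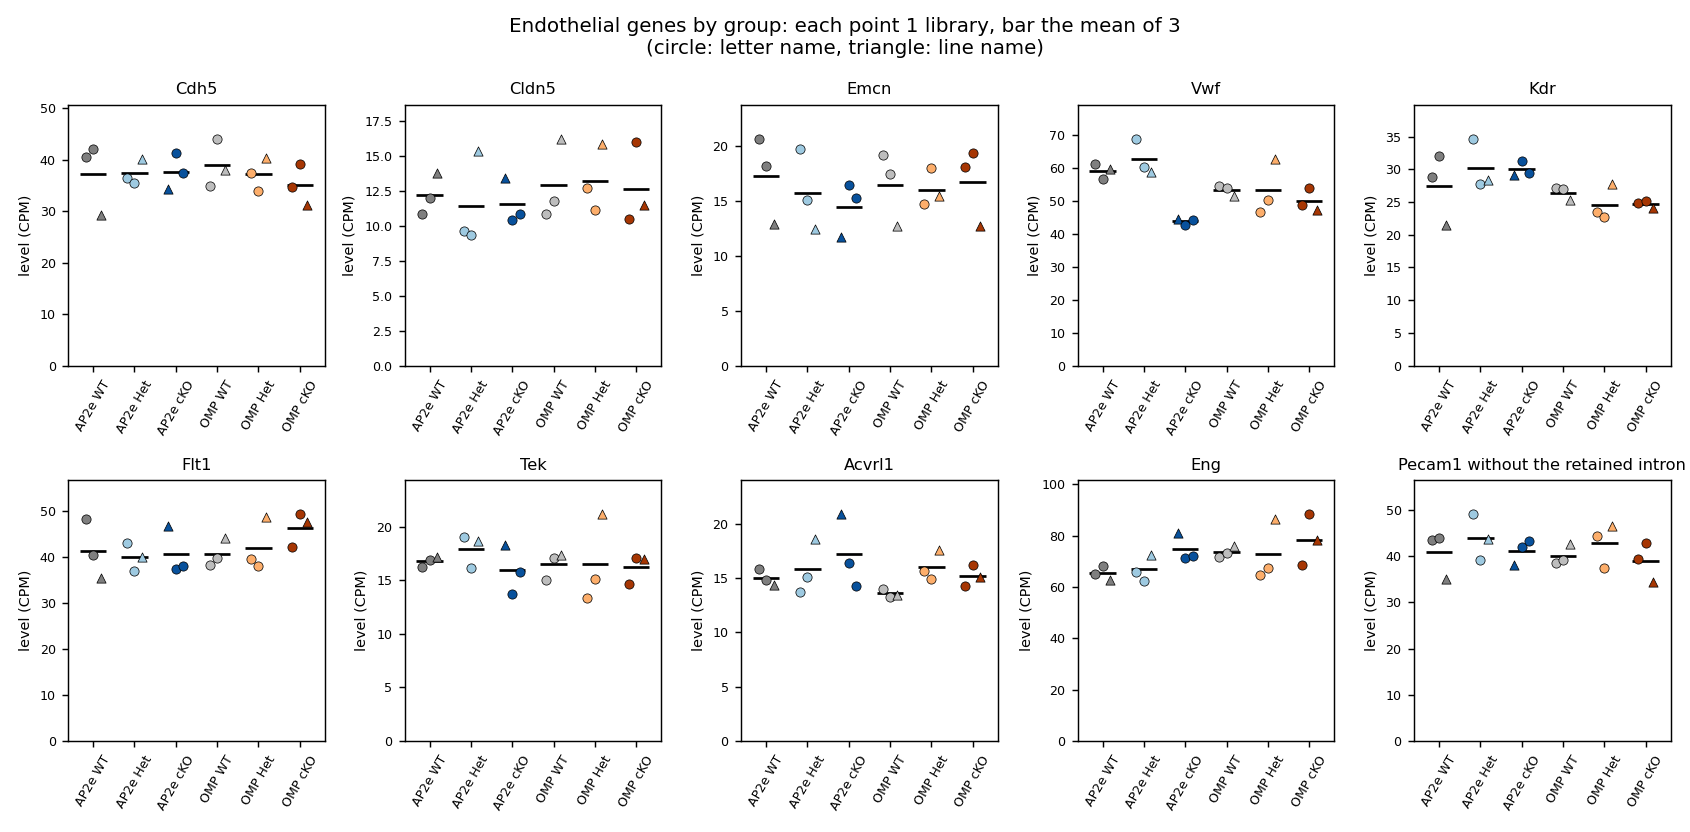
Level of the vessel genes in each library (CPM, axes from 0), by group, with Pecam1 shown without the retained intron. Each point is 1 library and each bar the mean of 3; circles are libraries with a letter name and triangles those with a line name. The 3 AP2e cKO points for Vwf lie between 42.7 and 44.6 CPM, below all 6 AP2e controls at 56.5 to 68.8 CPM.

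Vwf, which encodes von Willebrand factor, the protein that endothelial cells store in Weibel-Palade bodies and that tethers platelets at sites of injury (chr6:125546774-125686679, plus strand), was the vessel gene with the lowest p in the AP-2εCre cKO, and the one with the largest log2 fold change there when Pecam1 is taken without the retained intron. It was 61.3, 56.5 and 59.8 CPM in WT, 68.8, 60.2 and 58.9 CPM in Het and 44.6, 42.7 and 44.1 CPM in cKO of the AP-2εCre line. All 3 cKO libraries lay below all 6 controls, as did those of 2.83% of all genes tested. The cKO mean of 43.8 ± 0.97 CPM (SD, n = 3) was 0.719 times the control mean of 60.9 ± 4.18 CPM (SD, n = 6).

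For Vwf the log2 fold change was -0.47 ± 0.075 (SE), with rank 12 by p among the genes tested and an adjusted p of 0.123 in edgeR. DESeq2 gave -0.48 with an adjusted p of 2.12e-05. An exact permutation test, two-sided, gave p = 0.012, the smallest it can give for 3 libraries against 6. The difference lay on the same side with either kind of control alone, -0.44 against WT and -0.51 against Het, and in the libraries of each form of name, -0.51 with 2 cKO against 4 controls and -0.41 with 1 cKO against 2. For a gene measured in a whole organ, fewer cells of a type and less RNA per cell cannot be told apart. Beside the -0.47 of Vwf, the log2 fold changes of other endothelial genes were 0.02 ± 0.12 for Cdh5, 0.0045 ± 0.11 for Flt1, 0.06 ± 0.13 for Kdr and -0.04 ± 0.10 for Pecam1 without the retained intron. Tek and Emcn were at -0.12 ± 0.11 and -0.18 ± 0.19.

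The transcript of 2813 codons that encodes the full protein showed the same separation. It held 71.8% to 85.7% of the gene's counts in the AP-2εCre libraries compared. It was 38.2, 30.7 and 32.3 CPM in cKO, where its 6 controls lay between 41.3 and 56.9 CPM. Its TPM did overlap, at 5.03, 3.02 and 3.48 in cKO beside 3.65 to 5.07 in the controls. On counts rebuilt from TPM, which take in changes of transcript length, the log2 fold change of the gene was -0.54 with an SE of 0.28 and an adjusted p of 0.656.

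In the OMPCre line Vwf was 54.6, 53.9 and 51.3 CPM in WT, 46.6, 50.2 and 62.8 CPM in Het and 48.8, 53.9 and 47.1 CPM in cKO. The groups overlapped, with a log2 fold change of -0.09 ± 0.096 (edgeR, adjusted p = 1.00) and -0.26 ± 0.31 on counts rebuilt from TPM. The difference between the effects of the 2 lines was 0.38 on the log2 scale, OMPCre minus AP-2εCre, with an adjusted p of 0.982 in edgeR over the 19465 genes tested, of which 0% were called. The controls were at 53.2 ± 5.50 CPM in the OMPCre line and 60.9 ± 4.18 CPM in the AP-2εCre line, with overlapping ranges (log2 difference -0.19, adjusted p = 0.699 in edgeR).

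Platelets and their precursors also make von Willebrand factor, and blood in the vessels enters the RNA. The 5 platelet genes listed were all tested, with 5 of 5 higher and 0 called in the AP-2εCre cKO and a median log2 fold change of 0.52, opposite in sign to Vwf. Their summed level was 27.5 to 43.0 CPM in that cKO and 12.7 to 35.8 CPM in its controls. Of 6 red blood cell genes 5 were higher and 0 were called, with sums of 2767 to 3903 CPM in cKO and 1581 to 3495 CPM in controls. Of the 7 macrophage genes 5 were higher and 2 lower, at a median log2 fold change of 0.05, and 0 were called. Their sums were 212 to 219 CPM in cKO and 167 to 206 CPM in controls, without overlap. Of genes of other cells of the organ, 8 of 8 smooth muscle genes were higher (2198 to 2973 CPM in cKO, 1436 to 2566 CPM in controls). So were 7 of 8 VSN genes (1395 to 1672 CPM in cKO, 999 to 1411 CPM in controls). Of pericyte genes 6 of 9 were higher, of fibroblast genes 5 of 6 and of cartilage and bone genes 4 of 6. Of the lymphatic genes 2 were higher and 3 lower, at a median log2 fold change of -0.12. In each of these lists 0 genes were called. In the OMPCre cKO 1 of 5 platelet genes and 0 of 6 red blood cell genes were higher. The part of these cells in the values of Vwf was not tested.

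**Figure D4:**
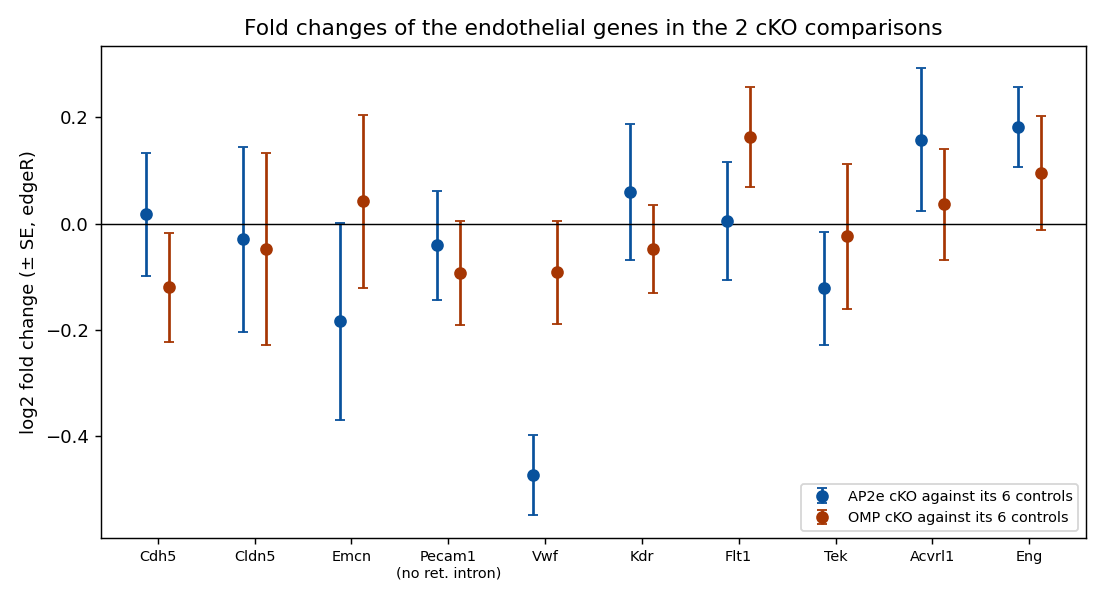
Log2 fold change with its SE (edgeR) of each vessel gene in the AP2e cKO and in the OMP cKO, each against the 6 controls of its line, with Pecam1 computed without the retained intron. Vwf in the AP2e cKO, at -0.47, lies farthest from 0 and the other values lie between -0.18 and 0.18.

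The junction and surface genes Cdh5, Cldn5 and Emcn showed no such separation. Cdh5 encodes VE-cadherin, the cadherin of endothelial adherens junctions (chr8:104101625-104144511). It was 34.3, 41.4 and 37.3 CPM in the AP-2εCre cKO, within the 29.2 to 42.0 CPM of its controls, and its log2 fold changes were 0.02 ± 0.12 in that line and -0.12 ± 0.10 in the OMPCre line. On counts rebuilt from TPM the former was 0.35 ± 0.22 (edgeR adjusted p = 0.756). Cldn5 encodes claudin-5, the main claudin of endothelial tight junctions (chr16:18776847-18778262). Its level was 10.4 to 13.4 CPM in the AP-2εCre cKO and 9.36 to 15.4 CPM in its controls, and its log2 fold changes were -0.03 ± 0.17 and -0.05 ± 0.18. Emcn encodes endomucin, a sialomucin of capillary and venous endothelium (chr3:137341067-137432185). It was 11.8 to 16.5 CPM in the AP-2εCre cKO and 12.4 to 20.7 CPM in its controls, with log2 fold changes of -0.18 ± 0.19 and 0.04 ± 0.16. For all 3 genes the cKO and control ranges overlapped in both lines.

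The growth factor receptors were as level. Kdr encodes VEGFR2, the main signaling receptor for VEGF-A (chr5:75932827-75978458), and was 29.2 to 31.3 CPM in the AP-2εCre cKO, within the 21.4 to 34.7 CPM of its controls. Its log2 fold changes were 0.06 ± 0.13 and -0.05 ± 0.083. Tek encodes the angiopoietin receptor TIE2 (chr4:94739289-94874976), at 13.7 to 18.3 CPM in the AP-2εCre cKO and 16.2 to 19.01 CPM in its controls, with log2 fold changes of -0.12 ± 0.11 and -0.02 ± 0.14. Flt1 encodes VEGFR1 (chr5:147561604-147726011), which binds VEGF-A tightly and limits its supply. It was 42.2, 49.3 and 47.6 CPM in the OMPCre cKO and 37.9 to 48.6 CPM in its controls, with a log2 difference of 0.16 ± 0.094 (edgeR adjusted p = 1.00), and 0.0045 ± 0.11 in the AP-2εCre line.

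Flt1 also makes a soluble receptor that lacks the membrane and kinase parts. The shorter coding transcript has 688 codons and that of the full receptor has 1333. The shorter one held 42.4% ± 3.70 (SD, n = 12) of the TPM of the 2 transcripts together in the controls. It held 48.2% ± 5.48 (SD, n = 3) in the AP-2εCre cKO, beside 42.5% ± 3.47 (SD, n = 6) in the controls of that line, and 46.6% ± 3.33 (SD, n = 3) in the OMPCre cKO, beside 42.4% ± 4.25 (SD, n = 6). The ranges overlapped in both lines, and the two-sided exact permutation test gave p = 0.107 and p = 0.19.

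The 2 endothelial BMP receptors were followed because the lost mediator lies downstream of them in their own cells, although Cre was directed to neurons. Eng (chr2:32646595-32682669) was 81.0, 71.5 and 72.0 CPM in the AP-2εCre cKO, where its controls ranged from 62.3 to 72.6 CPM. Only the AP2e Het replicate 3 control, at 72.6 CPM, reached into the cKO range. Within the forms of name the log2 difference of Eng was 0.14 in libraries with a letter name (2 cKO against 4 controls). It was 0.26 in those with a line name (1 cKO against 2). The log2 fold change was 0.18 ± 0.076 (p = 0.0361, adjusted p = 0.45 in edgeR), and the exact permutation test gave p = 0.0476. In the OMPCre line it was 68.4, 88.3 and 78.4 CPM in cKO and 64.9 to 86.6 CPM in controls, with a log2 fold change of 0.09 ± 0.11. The effects of the lines differed by -0.08 on the log2 scale (edgeR adjusted p = 1.00), so a difference between them was not detectable. The OMPCre controls were 0.15 higher than the AP-2εCre controls on that scale (edgeR adjusted p = 0.759).

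Acvrl1 (chr15:101128522-101145336) was 20.9, 16.4 and 14.3 CPM in the AP-2εCre cKO and 13.8 to 18.6 CPM in its controls, with log2 fold changes of 0.16 ± 0.13 in that line and 0.04 ± 0.10 in the OMPCre line. It was the vessel gene with the lowest p between the kinds of control in the OMPCre line. In the OMPCre line it was 14.1, 13.2 and 13.5 CPM in WT and 15.6, 14.9 and 17.6 CPM in Het, so that all 3 Het libraries lay above all 3 WT libraries, as did those of 6.48% of all genes tested. The log2 fold change was 0.24 ± 0.10 (p = 0.057, adjusted p = 0.876 in edgeR), and the exact permutation test gave p = 0.1, the smallest it can give for 3 libraries against 3. On counts rebuilt from TPM the log2 fold change of Acvrl1 was 0.61 ± 0.58 (edgeR adjusted p = 0.953), and that of Vwf in the same comparison was -0.82 ± 0.26 (edgeR adjusted p = 0.831), beside -0.0043 ± 0.12 on the summed counts. In both comparisons of Het with WT 0 of the 10 vessel genes were called, against 0.0224% of all genes in the AP-2εCre line and 0.0441% in the OMPCre line. At an unadjusted p under 0.05 there were 0 of 10 in both, against 5.18% and 5.54% of all genes. Between the controls of the lines 0 of 10 were called by edgeR, where 0.0949% of all genes were, and 1, Vwf, had an unadjusted p under 0.05, against 6.57% of all genes.

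Around these receptors, 20 genes of ligands, receptors, SMADs, targets and modulators of the pathway were listed. The ligand genes were near the floor in the VNO, Gdf2 (BMP9) with 0 to 7 counts in a library and Bmp10 with 0 to 61, and neither passed the filter on low counts. Of the 18 genes tested, 0 were called in either cKO, the median log2 fold change being -0.01 in the AP-2εCre line and -0.03 in the OMPCre line. In the AP-2εCre line 7 were higher and 11 lower, and in the OMPCre line 6 and 12. Smad9, a SMAD of the BMP branch, differed by 0.20 ± 0.14 on the log2 scale in the AP-2εCre cKO (edgeR adjusted p = 0.701). The target gene Id1 had log2 fold changes of -0.11 ± 0.22 and -0.25 ± 0.12, and Id2 had -0.25 ± 0.11 in the AP-2εCre line (edgeR adjusted p = 0.496).

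A second list held 24 other genes expressed mainly by endothelial cells, and all 24 were tested. In the AP-2εCre cKO 12 were higher, 12 were lower and 0 were called, with a median log2 fold change of 0.01, and in the OMPCre cKO 11 were higher, 13 lower and 0 called, with a median of -0.02. Clec14a, an endothelial lectin, was 26.6 ± 2.23 CPM in the AP-2εCre cKO and 33.6 ± 4.50 CPM in its controls (edgeR adjusted p = 0.382). S1pr1, the receptor for sphingosine 1-phosphate, was 95.2 ± 8.41 CPM there and 72.3 ± 14.2 CPM in controls (edgeR adjusted p = 0.411). Icam2 was 1.65 ± 0.16 CPM in the OMPCre cKO and 2.53 ± 0.79 CPM in its controls (edgeR adjusted p = 1.00).

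Of 11 VEGF and angiopoietin genes 0 were called in either cKO, with 8 higher and 3 lower in each and medians of 0.08 in both. Vegfd, a ligand of the lymphatic and vascular VEGF receptors, was 2.06 ± 0.23 CPM in the AP-2εCre cKO and 4.17 ± 1.20 CPM in its controls, without overlap (log2 fold change -1.01 ± 0.27, edgeR adjusted p = 0.308), and Nrp2, a co-receptor that neurons also express, was 361 ± 30.2 CPM there and 296 ± 24.2 CPM in controls (edgeR adjusted p = 0.345). Among 11 genes of the Notch pathway of arteries, 5 arterial, 6 venous and 6 barrier transport genes, 0 were called in either cKO. In the AP-2εCre and the OMPCre cKO in turn, 6 and 6 of the Notch genes were higher (medians 0.13 and 0.01), 5 and 4 of the arterial genes (0.20 and 0.05), 4 and 4 of the venous genes (0.23 and 0.03) and 3 and 4 of the barrier genes (-0.02 and 0.07). Ocln, which encodes the tight junction protein occludin of epithelia and endothelia, lay below all controls in both cKO groups, at 23.1 ± 0.16 CPM beside 28.0 ± 3.90 CPM in the AP-2εCre line and at 27.3 ± 1.53 CPM beside 31.3 ± 2.07 CPM in the OMPCre line (edgeR adjusted p = 0.457 and 1.00). All 3 cKO libraries were below all 6 controls for 2.83% of all genes in the AP-2εCre line and 0.94% in the OMPCre line. For Ocln in the AP-2εCre line the highest cKO library was at 23.28 CPM and the lowest control at 23.54 CPM. In the other direction, the glucose transporter gene Slc2a1 was 64.0 ± 1.77 CPM in the OMPCre cKO and 56.9 ± 6.31 CPM in controls (edgeR adjusted p = 1.00). The venous gene Sele, which encodes E-selectin, was 2.22 ± 0.49 CPM in the AP-2εCre cKO and 1.495 ± 0.19 CPM in controls (edgeR adjusted p = 0.437), and Lrg1 was 8.02 ± 2.21 CPM and 6.08 ± 0.95 CPM there (edgeR adjusted p = 0.518). The venous gene Selp, which encodes the P-selectin that is stored with von Willebrand factor and is made by platelets too, was 3.78 ± 0.29 CPM in the OMPCre cKO and 5.34 ± 1.17 CPM in controls (edgeR adjusted p = 1.00). Of 9 pericyte and 8 smooth muscle genes, which mark the wall of the vessels, 0 were called in either cKO, with median log2 fold changes of 0.25 and 0.24 in the AP-2εCre line and 0.09 and 0.34 in the OMPCre line.

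A second source of spread ran through all groups. The animals behind the libraries are named in the deposited data in 2 forms, a letter with a number in 12 libraries and the name of the line with a number in 6, and each of the 6 groups holds 2 libraries of the first form and 1 of the second. The sources used here do not say what the form of the name marks. Its comparison, with group as a term, was added after the values had been seen. By edgeR 12.1% of the 19465 genes tested were called between the 2 forms, and 3 of the 10 vessel genes were: Emcn, Pecam1 and Cldn5.

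Emcn was 11.8 to 15.5 CPM with a median of 12.7 CPM in the 6 libraries with a line name, and 14.7 to 20.7 CPM with a median of 18.05 CPM in the 12 with a letter name. The log2 fold change, line name against letter name, was -0.44 ± 0.080 (edgeR adjusted p = 0.00293). Cldn5 went the other way, at 11.5 to 16.2 CPM with a median of 14.6 CPM in libraries with a line name and 9.36 to 16.0 CPM with a median of 10.8 CPM in those with a letter name. Its log2 fold change was 0.35 ± 0.10 (edgeR adjusted p = 0.0422), and leaving out single libraries ended its call for 15 of the 18, with adjusted p up to 0.122 in edgeR. These genes of 1 cell type thus lay in opposite directions between the forms of name, and the median log2 fold change of the 10 genes was 0.06.

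Pecam1 was 77.3 to 144 CPM in libraries with a line name and 183 to 1368 CPM in those with a letter name, without overlap among the 18 libraries (log2 fold change -2.04 ± 0.38, edgeR adjusted p = 0.00396). Without the retained intron that log2 fold change was -0.07 ± 0.071 (edgeR adjusted p = 0.586). Of the endothelial barrier transport genes 6 of 6 had a positive log2 fold change between the forms of name, with 0 called. The other 7 vessel genes were not called, with Tek nearest at 0.21 ± 0.074 (edgeR adjusted p = 0.0818). Vwf did not follow the form of the name, at a log2 fold change of 0.02 ± 0.061. Genes of other cells in the organ differed in both directions in this comparison. The log2 fold change was negative for 6 of 6 cartilage and bone genes with 0 called, at a median log2 fold change of -0.51, and for 4 of 6 red blood cell genes with 2 called, at a median of -0.45. It was negative for 6 of 8 VSN genes and 5 of 7 macrophage genes too, with 2 called lower in each. It was positive for 7 of 9 pericyte genes with 1 called, at a median of 0.12, and for 5 of 8 smooth muscle genes with 0 called, at a median of 0.15. Their part in the values of Emcn and Cldn5 was not tested.

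**Figure D5:**
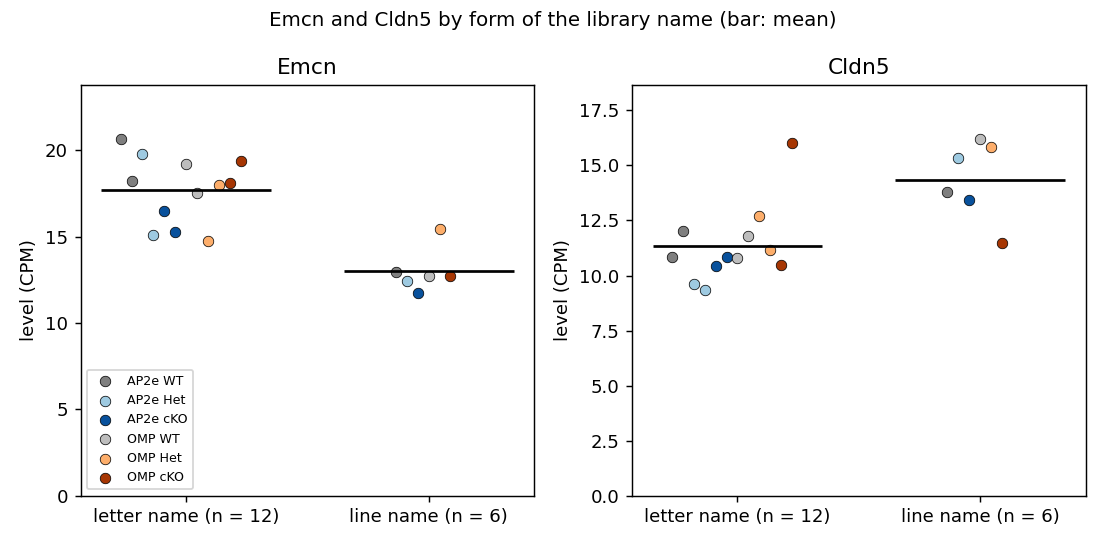
Level of Emcn and Cldn5 (CPM, axes from 0) in the 12 libraries with a letter name and the 6 with a line name; each point is 1 library, coloured by group, and each bar is a mean. Emcn lies at 11.8 to 15.5 CPM in the libraries with a line name and 14.7 to 20.7 CPM in the others, and Cldn5 lies mostly higher in the libraries with a line name.

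The vessel genes followed each other only loosely across the 18 libraries. Over the 45 pairs, with Pecam1 taken without the retained intron, the median Pearson r of log2(CPM + 1) was 0.22, and 38 pairs were positive. Cdh5 and Pecam1 (r = 0.67) and Flt1 and Eng (r = 0.67) were the most alike, and Emcn and Cldn5 (r = -0.45) the least. Pecam1 followed the mean of the other 9 best (r = 0.58), then Tek (r = 0.56) and Flt1 (r = 0.55), and Emcn did not follow it (r = 0.02). These values describe 18 libraries that share preparation and the 2 forms of name, and they carry no test.

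Among the 10 genes outside the list whose log2(CPM + 1) was most like the mean standardised level of the vessel genes, of 15812 genes with a mean of at least 1 CPM, were Imp4 (r = 0.86), Nog (r = 0.79), Ripor1 (r = 0.79), Cd93 (r = 0.78), Arl4d (r = 0.77), Zfp366 (r = 0.75), Ehd2 (r = 0.74), Rad17 (r = 0.73) and Jcad (r = 0.73). Cd93, a surface lectin of endothelium, is 1 of the 24 other endothelial genes listed, and Jcad encodes a protein of endothelial junctions. This mean took Pecam1 over all its transcripts, with the retained intron. With Pecam1 left out of the mean, 5 of the 10 were shared, namely Cd93, Imp4, Jcad, Rad17 and Ripor1, and Nog, Arl4d, Zfp366 and Ehd2 were not.

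Promoter sequences of 6 of the 10 genes, Eng, Emcn, Tek, Kdr, Flt1 and Cldn5, were in the RefSeq tables used (GRCm38.p6), and the 250 bases before the start were searched on both strands. ETS factors, which many endothelial genes use, bind cores such as AGGAAG. That letter string occurred in the promoters of 3 of the 6 genes, Eng, Emcn and Flt1, and in 29.5% of 32851 promoters. The motif of zinc finger factors of the blood and vessel lineage, AGATAA, occurred in 0 of 6 and in 9.99% of all. The forkhead motif, TAAACA, occurred in 0 of 6 and in 12% of all. The GC-rich SMAD motif, GGCGCC, occurred in 0 of 6 and in 9.59% of all. The other SMAD motif, CAGAC, occurred in 2 of 6, Eng and Cldn5, and in 42.2% of all. The windows of Eng and Flt1 are shown as examples, with each AGGAAG or its reverse complement in capitals. Eng lies at chr2:32646345-32646594 on the plus strand and Flt1 at chr5:147726012-147726261 on the minus strand, and each holds 2 such strings. The window of Emcn holds 2 as well, and the level of Emcn had an r of -0.18 with Eng and 0.05 with Flt1. That of Cldn5 holds none, and its level had an r of 0.63 with Eng. These pairs were picked out of 45, and the levels of Emcn and Cldn5 also differed between the forms of name. Whether the strings go with the levels was not tested.
Eng: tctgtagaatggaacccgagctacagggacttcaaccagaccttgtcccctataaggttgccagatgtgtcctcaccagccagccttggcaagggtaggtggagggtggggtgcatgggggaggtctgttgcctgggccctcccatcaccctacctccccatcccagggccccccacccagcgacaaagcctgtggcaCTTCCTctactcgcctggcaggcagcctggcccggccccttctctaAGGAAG
Flt1: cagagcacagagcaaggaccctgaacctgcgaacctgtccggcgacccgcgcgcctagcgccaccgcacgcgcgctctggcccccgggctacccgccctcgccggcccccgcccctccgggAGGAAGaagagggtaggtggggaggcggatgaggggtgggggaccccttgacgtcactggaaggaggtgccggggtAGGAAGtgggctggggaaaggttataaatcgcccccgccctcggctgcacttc
A match is a string of letters in this window and not a shown binding site.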

How the data were processed

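Stranded polyA+ libraries were sequenced as single reads of 75 bases from whole VNOs. The authors quantified them with salmon (version 0.14.0 in the submitters' processing notes, which also name DESeq2 1.22.2 and the builds mm10 and GRCm38). The deposited estimated counts per transcript need not be whole and are not normalized, and the deposited TPM values are scaled for length and depth. The effective lengths that the authors deposited, in bases, were used as other values only to rebuild counts from TPM. GENCODE vM21 paired 116072 of the 116248 transcripts with a gene, and the remaining 176 made up no more than 0.0324% of any library.

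Estimated counts were summed per gene and rounded. Genes were tested with the quasi-likelihood method of edgeR (version 4.0.16 in R 4.3.3), with TMM, filterByExpr and Benjamini-Hochberg adjustment over all genes tested. CPM values were scaled by TMM over all 19 libraries, and a pseudocount of 1 was used on the log2 scale for exact permutation tests. Each cKO was compared with the WT and Het of its line together. DESeq2 (1.42.0) and other settings were alternatives. The genes and lists were chosen with earlier results of these data known. Of each list up to 4 genes were selected for naming, by adjusted and then unadjusted p in the cKO comparisons. The tests were tested on simulated data. Deviations of same-numbered samples had an r of -0.31 to 0.19 in the AP-2εCre line (mean -0.08, beside 0.04 for other pairs). In the OMPCre line it was 0.02 to 0.52 (mean 0.23, beside -0.11 for other pairs). In that line replicate 3 had a line name in every group, so the number goes in part with the form of name. The main tests did not use the numbers as pairs, and fits with the number as a block are given below. Some transcripts and genes among those most alike across libraries are not reported here.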

Additional observations from a re-analysis of the deposited data

Results flagged for a closer look

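Of the vessel genes, 0 had a control library that stood apart from the other 5 controls of its line by Dixon's test at 95%. Among the 43 genes and transcripts checked, each in both lines, 5 of 86 groups of controls held such a library, and chance gives about 1 in 20 groups. Nrp2 was 249 CPM in AP2e WT replicate 3, with the next control at 295 CPM, and 379.8 CPM in OMP Het replicate 3, with the next at 316 CPM. Sema3g, an arterial gene, was 12.2 CPM in AP2e WT replicate 1, with the next at 8.97 CPM. Slc7a5, an amino acid transporter of the barrier list, was 85.9 CPM in OMP WT replicate 1, with the next at 65.2 CPM, and Ppbp, a platelet gene, was 29.5 CPM in OMP WT replicate 2, with the next at 13.3 CPM.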

How the results depend on the processing

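The vessel genes were not called in the cKO comparisons under any alternative run, with 1 exception: DESeq2 called 1 of the 10, Vwf, in the AP-2εCre cKO. Over the settings Vwf there ranged from -0.54 to -0.44 on the log2 scale with adjusted p from 2.12e-05 to 0.656, and without any 1 library from -0.49 to -0.44 with adjusted p from 0.0867 to 0.524. With the replicate number as a block, which the main tests did not use, 0 vessel genes were called. The log2 fold change of Vwf in the AP-2εCre cKO was then -0.47 (edgeR adjusted p = 0.262), and that of Pecam1 in the OMPCre cKO turned to 0.091. The sign also turned, on the log2 scale, for Flt1 in the AP-2εCre cKO (-0.0033 by DESeq2, -0.0034 with RLE factors, -0.15 on counts rebuilt from TPM, -0.028 against WT alone), and against Het alone for Kdr (-0.0069) and Cldn5 (0.021) in the AP-2εCre cKO and for Pecam1 (0.11), Kdr (0.0088) and Acvrl1 (-0.075) in the OMPCre cKO. Pecam1 in the AP-2εCre cKO turned to -0.041 without its retained intron. Leaving out 1 library gave, in the AP-2εCre cKO, Pecam1 from 0.29 to 1.84, Cdh5 from -0.058 to 0.079, Kdr from -0.012 to 0.12, Flt1 from -0.11 to 0.060, Cldn5 from -0.15 to 0.060 and Acvrl1 from -0.0072 to 0.28. In the OMPCre cKO it gave Pecam1 from -0.54 to 0.28, Tek from -0.078 to 0.060, Emcn from -0.076 to 0.20, Cldn5 from -0.25 to 0.066 and Acvrl1 from -0.015 to 0.091, and for the difference between the lines Eng from -0.18 to 0.0054. With no change of sign, but by over 1.5 times, it moved, among others, Emcn (-0.29 to -0.056) and Tek (-0.24 to -0.025) in the AP-2εCre cKO and Eng (0.00036 to 0.18), Cdh5 (-0.21 to -0.043) and Vwf (-0.15 to -0.039) in the OMPCre cKO. Eng in the AP-2εCre cKO had an unadjusted p under 0.05 in 5 of 9 such fits. On counts rebuilt from TPM, Tek (-0.28) in the AP-2εCre cKO and Emcn (0.084) and Acvrl1 (0.14) in the OMPCre cKO also moved by over 1.5 times. The causes were not tested.

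Between the forms of name Cldn5 lost its call on counts rebuilt from TPM (edgeR adjusted p = 0.0512) where Tek (0.0314) and Eng (0.0318) gained one, and 2 to 3 vessel genes were called without any 1 library. Over all genes the settings called 2 to 320 genes in the AP-2εCre cKO, 0 to 46 in the OMPCre cKO, 0 to 20 for the difference between the lines, 3 to 179 and 0 to 148 between Het and WT, 14 to 131 between the controls of the lines and 1868 to 3520 between the forms of name. Without any 1 library, edgeR called 1264 to 3058 genes between the forms of name. With 3 cKO libraries a line, differences of the size of the SEs given were not detectable, and the shares of depth and of replicate spread in that limit were not tested.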

Other observations

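The AP-2εCre library with labels of both a Het and a cKO had 54.2 CPM of Vwf, between the 44.6 CPM of the highest cKO library and the 56.5 CPM of the lowest control of that line. Its name has the form of the line name. Its Pecam1 level was 288 CPM over all transcripts and 32.8 CPM without the retained intron, so that among the libraries with a line name it held the most of that transcript, at 255 CPM beside 39.2 to 110 CPM in the others. Emcn was 13.5 CPM and Cldn5 was 10.2 CPM in it, and the former lay inside the range of the other libraries with a line name and the latter below it. Eng was 69.9 CPM and Acvrl1 15.6 CPM.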
